A study of Rattus norvegicus with 10 samples.

Results

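The small leucine-rich proteoglycans are secreted matrix proteins, and 7 of their genes were followed here in the rat abdominal aorta: biglycan (Bgn), decorin (Dcn), asporin (Aspn), lumican (Lum), fibromodulin (Fmod), Prelp and osteoglycin (Ogn). Members were chosen by annotated gene symbol, and 10 of the 15866 probe sets tested carry one of these symbols. Osteoglycin has 4 probe sets and each of the other 6 genes has 1. A probe set is a group of short probes on an Affymetrix array that together give 1 signal for a stretch near the 3′ end of a transcript. All 10 were read above background, the 95th percentile of the signal of bacterial spike-in probe sets, on all 10 arrays.

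The study set the Brown Norway strain (BN) against the LOU strain, with 5 arrays each, to look for genes behind what sets BN arteries apart. Both are inbred rat strains, neither received a treatment, each array is labelled with an age of 5 weeks, and the growth notes speak of rats kept up to 18 weeks. The labels give neither the sex nor whether a sample held 1 animal or a pool, so p-values measure only the spread between these arrays, which may be technical. The extraction notes name the thoracic as well as the abdominal aorta.

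Each of these proteins has a small core built of leucine-rich repeats, a fold that binds other proteins, and several carry chains of chondroitin, dermatan or keratan sulphate. In the artery wall they sit on collagen fibrils, where they shape fibril assembly, and they hold growth factors such as TGF-beta. Class I takes in biglycan, decorin and asporin, class II lumican, fibromodulin and Prelp, and class III osteoglycin, also called mimecan. Loss of biglycan is known to weaken the aorta, and osteoglycin is abundant in the matrix of normal arteries and has been studied in rats as a gene linked to the mass of the left ventricle.

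Osteoglycin was the 1 member to differ between the strains in limma's test, and it did so in only some of its probe sets. The probe sets 1376749_at and 1383263_at read about 3-fold lower in BN, while 1385248_a_at and 1390450_a_at had strain ranges that overlapped. None of the other 6 genes passed the test, with log2 differences (BN minus LOU) from -0.53 for decorin to 0.32 for Prelp. Among the 10 probe sets, 2 were called lower in BN and 0 higher at an adjusted p of 0.05, and 3 had an unadjusted p under 0.05. Over all probe sets, 0.542% were called lower and 0.246% higher. The median difference of the 10 was -0.25, against -0.03 over all probe sets.

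**Figure D1:**
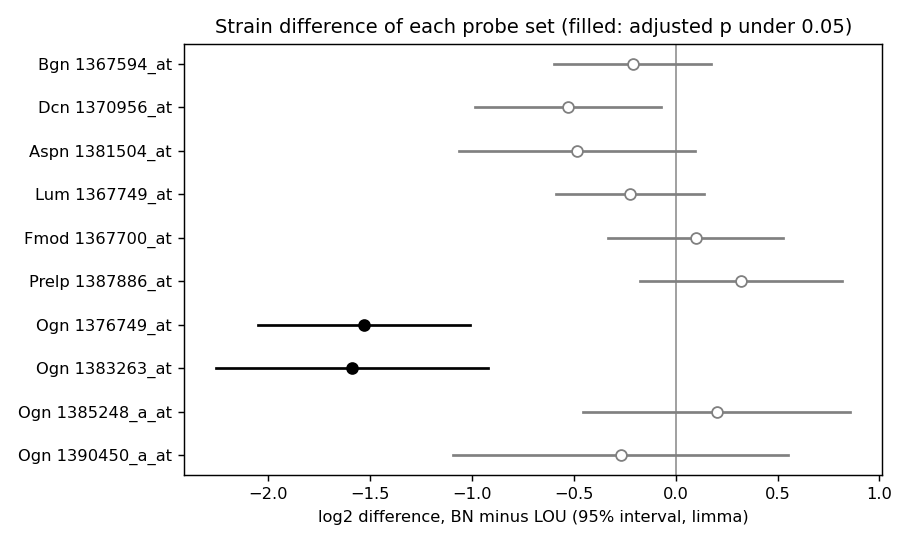
Log2 difference between the strains (BN minus LOU, x axis) for each of the 10 probe sets, with the 95% interval from limma; filled points have an adjusted p under 0.05. The Ogn probe sets 1376749_at and 1383263_at sit at -1.53 and -1.59, and the other 8 points lie between -0.53 and 0.32.

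The start of the Ogn gene is shown because Ogn is the member that differed, and that of Aspn because both genes lie in 1 cluster on chromosome 17, where Omd separates them. Each sequence holds the 250 bases before the start of the gene, from RefSeq on the GRCr8 build, on the minus strand and read 5′ to 3′ in the direction of the gene. The first is chr17:15258996-15259245 and the second chr17:15310470-15310719. Capitals mark matches to TATAAA or GGAATG on either strand.
Ogn: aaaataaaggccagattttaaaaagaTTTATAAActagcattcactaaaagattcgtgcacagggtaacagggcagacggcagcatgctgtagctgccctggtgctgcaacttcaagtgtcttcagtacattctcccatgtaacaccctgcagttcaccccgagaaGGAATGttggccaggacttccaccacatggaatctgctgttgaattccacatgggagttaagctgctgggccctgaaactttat
Aspn: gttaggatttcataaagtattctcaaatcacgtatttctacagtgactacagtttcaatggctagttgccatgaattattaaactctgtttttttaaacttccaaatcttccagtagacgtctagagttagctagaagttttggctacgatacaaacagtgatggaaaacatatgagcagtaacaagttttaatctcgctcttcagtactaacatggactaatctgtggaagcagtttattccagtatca

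In the Ogn window TATAAA, the core of the TATA box, matched on both strands at overlapping positions from -224 to -217, counted back from the start. Whether a match so far from the start acts as a TATA box was not tested. GGAATG, a sequence bound by TEAD factors, matched once, from -84 to -79. Over all 33469 promoter windows of the same length, 12.9% held TATAAA and 12.1% GGAATG. Neither CCAAT (34.0% of windows) nor the CArG box bound by serum response factor (1.5%) matched in the Ogn window, and none of the 4 motifs matched in the Aspn window. Promoter windows were matched by symbol for 4 of the 7 members, Ogn, Aspn, Lum and Fmod. Of the 4, Lum and Fmod each held 1 CCAAT match and none of the other motifs.

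The 1376749_at probe set for Ogn separated the strains. Its signal, in linear array units, was 1596.2, 1028.1, 1702.0, 2019.0 and 2580.6 on BN arrays 1 to 5, and 3810.6, 4974.6, 5364.6, 5956.9 and 4779.3 on LOU arrays 1 to 5. The 2 strains did not overlap: the highest BN array stood below the lowest LOU array. Means were 1785 ± 571 (SD, n = 5) in BN and 4977 ± 792 in LOU, a log2 difference of -1.53 (SE 0.23, 95% interval -2.05 to -1.01), or 2.88-fold (limma adjusted p = 0.0171). The call depended on which array was left out: it held in 7 of the 10 fits without 1 array and was lost without LOU array 2, 3 or 4 (adjusted p = 0.0546, 0.0599 and 0.0517), with a difference of -1.68 to -1.34 in the 10 fits.

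Probe set 1383263_at gave the same picture with more spread. Its signals were 1252.5, 617.7, 969.0, 1178.7 and 1936.8 on BN arrays 1 to 5, and 2108.9, 3425.2, 4134.6, 4153.7 and 3369.5 on LOU arrays 1 to 5. BN array 5 and LOU array 1 came close to each other but did not overlap. The log2 difference was -1.59 (SE 0.30, 95% interval -2.25 to -0.92), or 3.0-fold, with a limma adjusted p of 0.0460. That call was kept in 2 of the 10 fits, those without BN array 5 or LOU array 1, and was lost without any 1 of the other 8 arrays (adjusted p = 0.0761 to 0.128), with differences of -1.79 to -1.37 in the 10. It was also lost with the arrays centred on their medians (-1.54, adjusted p = 0.0549) and with signals under 32 set to 32 (-1.59, adjusted p = 0.0579). Both probe sets lost their call when BN array 3 and LOU array 1 were left out together, with differences of -1.62 and -1.70 (adjusted p = 0.0597 and 0.0839). Of all probe sets, 2.77% were lower on every BN array than on every LOU array, as these 2 were.

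Probe set 1385248_a_at read the strains in the other order, without passing the test. Its signals on BN arrays 1 to 5 were 1714.7, 918.9, 1872.3, 2425.3 and 3125.1, and on LOU arrays 1 to 5 1296.8, 1800.7, 1919.7, 1755.4 and 1410.2. All 5 LOU values fell inside the BN range, whose ends were BN arrays 2 and 5. The log2 difference was 0.20 (SE 0.29, 95% interval -0.45 to 0.86, limma adjusted p = 0.811), and this interval lies wholly above those of 1376749_at and 1383263_at. Its size rested on single arrays, at 0.46 without BN array 2 and 0.015 without BN array 5.

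The fourth Ogn probe set, 1390450_a_at, had signals of 399.8, 266.1, 749.2, 932.5 and 835.9 on BN arrays 1 to 5 and of 502.2, 1026.9, 519.6, 686.1 and 860.1 on LOU arrays 1 to 5. The strains overlapped here as well, with BN arrays 1 and 2 below every LOU array and LOU array 2 above every BN array. Its log2 difference was -0.27 (SE 0.37, 95% interval -1.09 to 0.55, adjusted p = 0.795), and without BN array 2 the sign turned (0.0075). The annotation cites the same source sequence for 1390450_a_at and for 1376749_at, whose difference was -1.53. In Affymetrix naming the suffix _a_at marks a probe set whose probes match several transcripts of a gene. The positions of the probes along the Ogn transcripts were not analysed here.

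**Figure D2:**
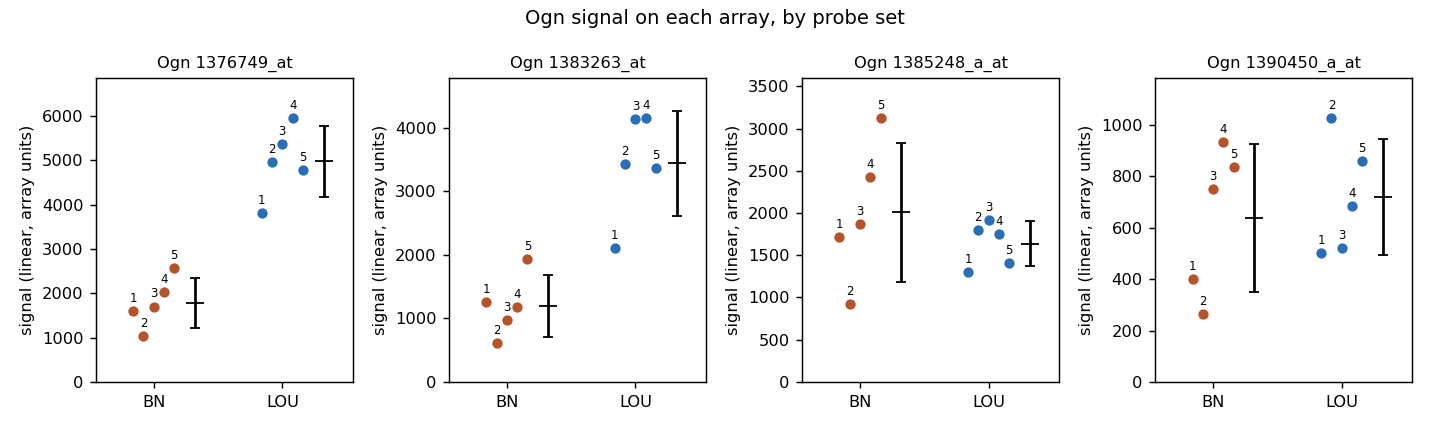
Signal of the 4 Ogn probe sets (y axis, linear array units) on each BN and LOU array; numbers give the array, and black bars the mean ± SD of 5 arrays. In 1376749_at all BN arrays lie at or below 2580.6 and all LOU arrays at or above 3810.6, while in 1385248_a_at the LOU arrays, 1296.8 to 1919.7, lie within the BN range of 918.9 to 3125.1.

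The difference between the Ogn probe sets in how they read the strains was itself tested. For each array the log2 signal of 1 probe set was subtracted from that of another, and these within-array differences were compared between the strains with an exact permutation test (two-sided, 5 arrays against 5, smallest possible p 0.00794). The 6 pairs were adjusted together, and 4 of them differed between the strains. For 1376749_at minus 1385248_a_at the within-array difference was -0.28 to 0.16 in BN and 1.47 to 1.76 in LOU, a gap of -1.73 (3.32-fold, exact permutation p = 0.00794, adjusted p = 0.0119). For 1383263_at minus 1385248_a_at it was -1.04 to -0.45 in BN and 0.70 to 1.26 in LOU, a gap of -1.79 (3.45-fold) with the same exact p and adjusted p. Neither pair overlapped between the strains.

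Against 1390450_a_at, the gap was -1.26 (2.39-fold) for 1376749_at and -1.32 (2.49-fold) for 1383263_at, again without overlap and with an exact permutation p of 0.00794 and an adjusted p of 0.0119. The probe sets that were lower in BN did not differ from each other beyond the spread of the arrays, with a gap of 0.06 (exact permutation p = 0.595, adjusted p = 0.595). The 2 probe sets with overlapping strains had a gap of 0.47 between them (exact permutation p = 0.135, adjusted p = 0.162). Without 1 array, the gaps of the 4 pairs that differed ran from -1.87 to -1.12.

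**Figure D3:**
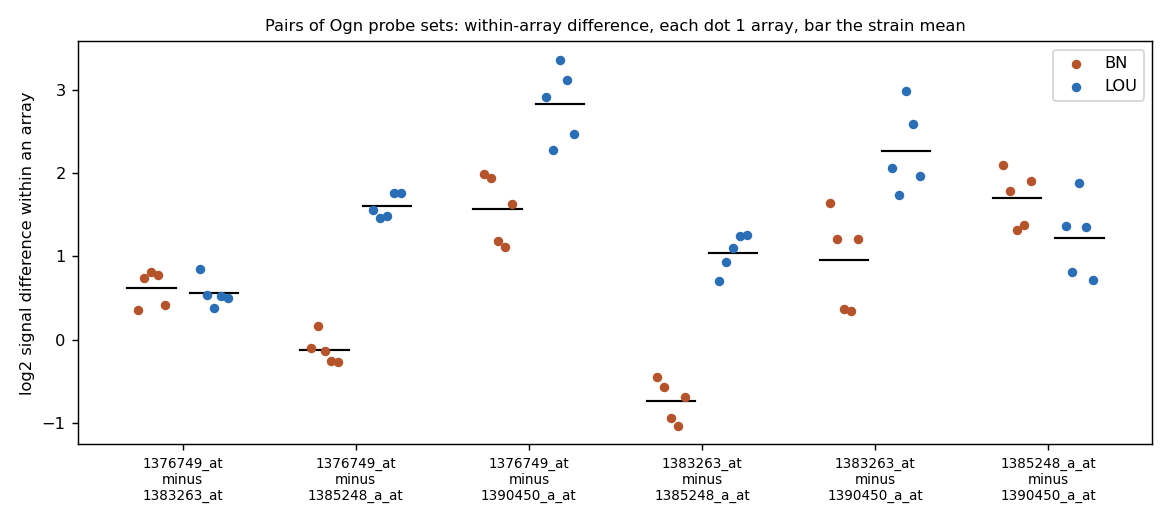
Difference in log2 signal within an array (y axis) for each of the 6 pairs of Ogn probe sets, with 1 dot per array and a bar at the strain mean. The distance between the BN and LOU bars is the measurement, since probes differ in brightness: it is 1.73 and 1.79 in size for the pairs with 1385248_a_at and 0.06 between 1376749_at and 1383263_at.

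Within a strain, the Ogn probe sets mostly followed the same arrays. Correlations were taken over the 10 arrays after each strain was centred on its mean, with arrays permuted within strains in all 14400 ways. For 1376749_at and 1385248_a_at, which disagree about the strains, Pearson r was 0.97 (exact permutation p = 0.000486, adjusted over 6 pairs 0.00292) and Spearman rho 0.92 (exact permutation p = 0.00222, adjusted 0.0133). For 1376749_at and 1383263_at r was 0.94 (exact permutation p = 0.00174, adjusted 0.00521) and rho 0.84 (exact permutation p = 0.00875, adjusted 0.0263). For 1383263_at and 1385248_a_at r was 0.89 (exact permutation p = 0.00375, adjusted 0.00750) and rho 0.78 (exact permutation p = 0.0206, adjusted 0.0411). Without the 2 arrays farthest from the median, BN arrays 2 and 5, r was 0.86, 0.82 and 0.64 for these 3 pairs.

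Probe set 1390450_a_at followed the others less closely. Pearson r of 1390450_a_at was 0.76 with 1385248_a_at (exact permutation p = 0.0306, adjusted 0.0413; rho 0.73, exact permutation p = 0.0478, adjusted 0.0718) and 0.75 with 1376749_at (exact permutation p = 0.0344, adjusted 0.0413; rho 0.68, exact permutation p = 0.0687, adjusted 0.0824). Without BN arrays 2 and 5 these fell to 0.47 and 0.45, so that the size of both depended on those arrays. Leaving out the farthest arrays narrows the range, which by itself tends to lower r. With 1383263_at, r was 0.57 and rho 0.31 (exact permutation p = 0.160 and 0.450, which the adjustment left as they were), and r was 0.08 without the same 2 arrays. BN array 2 was the lowest BN array in all 4 probe sets, by 0.73 to 1.11 below the strain mean (log2), and LOU array 1 was the lowest LOU array in all 4.

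**Figure D4:**
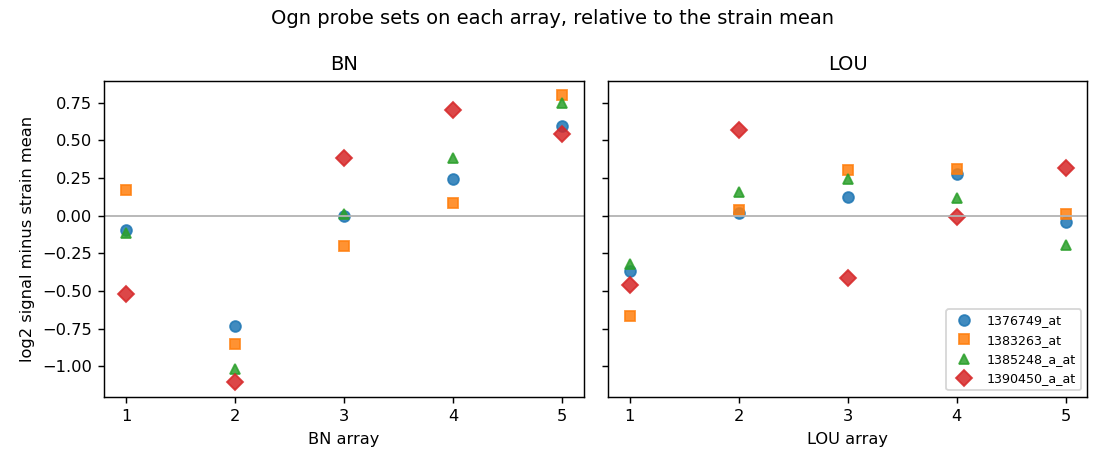
Log2 signal of the 4 Ogn probe sets minus the mean of the strain (y axis) on each array (x axis), with BN on the left and LOU on the right. BN array 2 lies lowest among BN arrays in every probe set, from -1.11 to -0.73, and LOU array 1 lowest among LOU arrays, from -0.66 to -0.32.

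In the Ogn probe set 1376749_at, levels also moved with brown adipocyte markers within the strains. For 12 lists of cell type markers the signals of the members were summed per array, and these sums were set against 1376749_at over the 10 arrays, with strains centred. The brown adipocyte sum ran opposite to Ogn (Pearson r = -0.85, exact permutation p = 0.00153, adjusted over 12 lists 0.0183; Spearman rho = -0.93, exact permutation p = 0.00118, adjusted 0.0142; r = -0.74 without BN array 5 and LOU array 4, the farthest from the median). BN array 2, the lowest in Ogn, had the highest brown adipocyte sum, 19624, and BN array 5, the highest BN array in Ogn, had 2080. The adipocyte list gave r = -0.79 (exact permutation p = 0.0109, adjusted 0.0654) and rho = -0.83 (exact permutation p = 0.00833, adjusted 0.05), with r = -0.68 without BN array 5 and LOU array 3. The smooth muscle sum gave r = 0.74 (exact permutation p = 0.0292, adjusted 0.117) and rho = 0.60 (exact permutation p = 0.101, adjusted 0.24). Without BN array 5 and LOU array 4 this r was 0.48. The brown adipocyte list was the 1 of the 12 with adjusted p-values under 0.05, and the adventitial fibroblast sum gave r = 0.14 and rho = 0.15 (exact permutation p = 0.621 and 0.678, adjusted 0.828 and 0.813).

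Both fat sums were also entered in the fit, in settings chosen after seeing the data. With the adipocyte sum as a covariate the strain difference was -1.57 for 1376749_at and -1.64 for 1383263_at (limma adjusted p = 0.00368 and 0.00921). With the brown adipocyte sum it was smaller in size than without, at -1.24 and -1.21 (adjusted p = 0.0157 and 0.0432). That covariate moved every other member probe set upward too, and none of those passed the test. For 1385248_a_at the difference went from 0.20 to 0.54, and for 1390450_a_at from -0.27 to -0.03. For the other members it became -0.44 (Dcn), -0.03 (Bgn), -0.26 (Aspn), -0.12 (Lum), 0.29 (Fmod) and 0.47 (Prelp). All 7 measured brown adipocyte markers were positive, that is, higher in BN on average, with a median log2 difference of 0.97. Of these 7, 2 had an unadjusted p under 0.05, none passed the limma test, and only 3 were above background on every array. Over all named genes 52.4% were negative and 13.2% had an unadjusted p under 0.05. Of the 7 adipocyte markers 4 were positive, with a median of 0.06. Brown adipocyte sums ran from 2080 to 19624 in BN and from 1321 to 11295 in LOU, and adipocyte sums from 2362 to 11143 and from 3725 to 14592. What part fat in the samples had in the Ogn difference was not tested beyond these fits. In whole tissue, fewer cells of a type and less RNA per cell cannot be told apart.

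Samples were checked against markers of the tissue and of other cells. All 11 measured smooth muscle markers and all 9 endothelial markers were above background on every array, as were all 12 adventitial fibroblast markers. Of the smooth muscle markers 9 were positive and 2 negative, with a median of 0.22, and 3 had an unadjusted p under 0.05, or 27.3%. Of the endothelial markers 4 were positive and 5 negative, with a median of -0.02 and none at an unadjusted p under 0.05. No fibroblast marker passed the test and 7 had an unadjusted p under 0.05, with 9 of 12 negative and a median of -0.37. Those 7 went both ways and are named after their values were seen. Sfrp2, Pi16, Pdgfra, Dpt and Col14a1 were lower in BN (log2 -1.28, -1.08, -0.80, -0.78 and -0.59). Their limma adjusted p ran from 0.0730 for Pi16 to 0.246 for Col14a1. Gsn and Cxcl12 were higher in BN (log2 0.47 and 0.88). Over all named genes 13.2% had an unadjusted p under 0.05 and 52.4% were negative. The fibroblast sums were 9608 to 13172 in BN and 10362 to 18542 in LOU. The part of fibroblast content in the Ogn difference was not tested. Of 9 Schwann cell markers 8 were positive, with a median of 0.45, 5 had an unadjusted p under 0.05, and Mbp was called higher in BN. All 8 neuron markers were positive, with a median of 1.17 and none at an unadjusted p under 0.05. Read from the brightest probe set of each gene, none of the other lists of cell markers had a member past the limma test. Of the 5 probe sets of the skeletal muscle marker Myh1, named after its values were seen, 2 passed that test. BN array 3, which the neuron median above includes, stood apart in neuron markers, with a sum of 13586. The other BN arrays gave neuron sums of 453 to 687, inside the LOU range of 225 to 1777. LOU array 1 stood apart in lymphocyte markers, with 909 against 238 to 296, and macrophage markers, with 2674 against 818 to 1259. Skeletal muscle sums were 3144 to 5072 in BN and 2035 to 3280 in LOU. Their brightest marker, Myh1, read 3066 ± 837 in BN against 1394 ± 590 in LOU (SD, n = 5). Of the 8 skeletal muscle markers 4 were positive and 4 negative, with a median of 0.14, and 4 were above background on every array. The 3′ to 5′ signal ratio of the beta-actin controls, a sign of RNA quality, was 3.47 to 5.39 in BN and 3.85 to 4.59 in LOU (exact permutation p = 0.905), and that of Gapdh 1.38 to 1.72 and 1.42 to 2.01 (exact permutation p = 0.730).

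Among the class I genes, decorin had the largest difference. Decorin decorates collagen fibrils and limits their growth in width. Its signals were 4476.2, 3702.1, 3575.1, 3944.0 and 4348.7 on BN arrays 1 to 5 and 4801.2, 8490.1, 7128.4, 5509.7 and 3937.8 on LOU arrays 1 to 5. The BN arrays were close together, with a coefficient of variation of 9.82%, while the LOU arrays spread over 2.16-fold, at 30.6%, and LOU array 5 fell among the BN arrays. The log2 difference was -0.53 (SE 0.21, 95% interval -0.98 to -0.07), with an unadjusted p of 0.0277 in limma and an adjusted p of 0.303.

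Biglycan, which carries chondroitin or dermatan sulphate and is the close relative of decorin, had signals of 5368.5, 5286.1, 4523.8, 5540.0 and 6999.0 on BN arrays 1 to 5 and 4909.7, 5658.5, 6494.8, 8527.7 and 6708.7 on LOU arrays 1 to 5. The strains overlapped over most of their range, and means were 5543 ± 902 (SD, n = 5) and 6460 ± 1359. Its log2 difference was -0.21 (SE 0.17, 95% interval -0.60 to 0.18, limma adjusted p = 0.645), which leaves room for a BN level up to 0.60 (log2) below LOU.

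Asporin binds collagen and calcium and restrains TGF-beta. Its signals were 189.9, 96.4, 189.8, 178.4 and 252.9 on BN arrays 1 to 5 and 202.4, 343.8, 264.4, 239.7 and 190.4 on LOU arrays 1 to 5. Of the BN arrays 4 lay below every LOU array, and BN array 5 lay inside the LOU range. The log2 difference was -0.48 (SE 0.26, 95% interval -1.06 to 0.09, limma adjusted p = 0.463). BN array 2, the lowest in all Ogn probe sets, was lowest here too, and without it the difference was -0.27.

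The class II genes are lumican, fibromodulin and Prelp. Lumican, which spaces collagen fibrils and is best known from the cornea, had signals of 2250.1, 1778.3, 2126.2, 2248.1 and 2769.3 in BN and 2484.1, 3149.4, 3063.0, 2303.3 and 2085.6 in LOU. BN array 5 lay above 3 LOU arrays, and LOU array 5 below 4 BN arrays. Its log2 difference was -0.22 (SE 0.16, 95% interval -0.59 to 0.14, limma adjusted p = 0.60).

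Fibromodulin, which guides collagen fibril assembly and cross-linking in tendon, was 1117.3, 1166.9, 998.8, 965.1 and 1465.8 on BN arrays 1 to 5. LOU arrays 1 to 5 gave 859.3, 995.1, 1516.5, 1198.1 and 838.5, with the highest and the lowest signal of all arrays. The log2 difference was 0.10 (SE 0.19, 95% interval -0.33 to 0.53, limma adjusted p = 0.860).

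Prelp, which ties basement membranes to the matrix around them, had signals of 642.2, 651.7, 391.7, 650.5 and 750.7 in BN and 357.4, 579.7, 639.0, 515.8 and 385.6 in LOU. All BN arrays except array 3 lay above every LOU array. The log2 difference was 0.32 (SE 0.22, 95% interval -0.18 to 0.82, limma adjusted p = 0.583), and without BN array 3 it was 0.48 (adjusted p = 0.355). The neuron markers of this array are given above, and their part in its low Prelp signal was not tested.

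**Figure D5:**
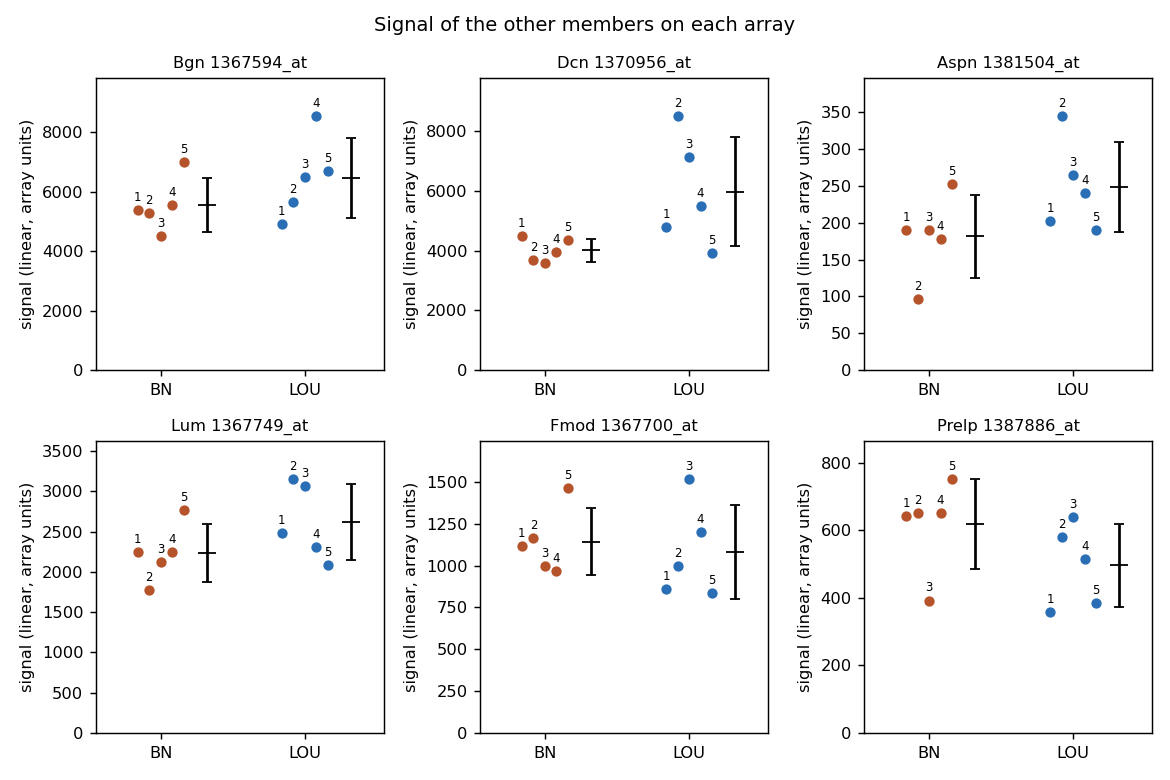
Signal (y axis, linear array units) of the members with 1 probe set on each BN and LOU array; numbers give the array, and black bars the mean ± SD of 5 arrays. The strains overlap in all 6, and LOU arrays 2 and 3, at 8490.1 and 7128.4, stand above the other arrays in Dcn.

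Correlations between members were all positive, with Pearson r from 0.05 to 0.87. Of 21 pairs of members, each read from its brightest probe set over 10 arrays with strains centred, 0 passed an adjusted p of 0.05 on Pearson's r and 1 on Spearman's rho. That pair was asporin and lumican, with r = 0.87 (exact permutation p = 0.00326, adjusted 0.0578), rho = 0.88 (exact permutation p = 0.00208, adjusted 0.0438) and r = 0.82 without the 2 farthest arrays. Decorin and lumican, which lie next to each other on chromosome 7, had r = 0.81 (exact permutation p = 0.00722, adjusted 0.0578), rho = 0.78 (exact permutation p = 0.0132, adjusted 0.107) and r = 0.69 without the 2 farthest. Fibromodulin and Prelp, next to each other on chromosome 13, had r = 0.74 (exact permutation p = 0.0289, adjusted 0.101), rho = 0.73 (exact permutation p = 0.0356, adjusted 0.131) and r = 0.60 without the 2 farthest. Asporin and Ogn had r = 0.80 (exact permutation p = 0.0247, adjusted 0.101) and rho = 0.53 (exact permutation p = 0.148, adjusted 0.344). Without the 2 arrays farthest out this r was 0.32, so that its size depended on them. At an unadjusted p under 0.05 stood 7 pairs on r.

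Genes beside the members did not pass the test. Of 17 protein-coding genes within 2 places of a member in the RefSeq gene order of GRCr8 that are no members themselves, 7 were on the array under a single symbol and 0 passed limma's test (lowest adjusted p 0.548). On chromosome 17, Omd, which encodes osteomodulin and sits between Ogn and Aspn, had a mean of 261 ± 80.5 in BN against 298 ± 90.1 in LOU (SD, n = 5), a log2 difference of -0.20 (adjusted p = 0.787). On the other side of Ogn, Cenpp, a centromere protein, differed by -0.06 (adjusted p = 0.928) and Nol8, a nucleolar protein, by -0.44 (adjusted p = 0.678), the latter above background on 8 arrays.

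The genes whose brightest probe set was most like 1376749_at over the 10 arrays, with strains centred, were Son, Nktr, Phc3, Zfp518b and Dcaf17, with Pearson r of 0.98, 0.97, 0.97, 0.97 and 0.96. They were the top 5 of 7370 genes above background on every array, and none of them passed the strain test (log2 differences -0.47 to -0.19). Son is a splicing cofactor and Phc3 a Polycomb protein. For decorin the closest were Pcolce, which enhances the cleavage of procollagen, Fibp and Tmem259 (0.96, 0.93 and 0.93), and for biglycan Mob2, Dtx1 and Wdr13 (0.98, 0.98 and 0.98). Prelp was followed most closely by Ctsa, Serpinf1 and Apba3 (0.97, 0.96 and 0.92), and fibromodulin by Klhdc3, Mydgf and Oat (0.95, 0.94 and 0.92). Prpf18 was first for both asporin (0.95) and lumican (0.93), followed by Tm9sf3 and Mapk6 (0.94 and 0.94) for asporin and by Cyp27a1 and Mterf1 (0.90 and 0.90) for lumican.

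Other genes of the same biology were read from lists, with each gene at its brightest probe set. Over the 10411 named genes, 0.480% were called lower and 0.240% higher in BN by limma, with a median log2 difference of -0.02. Of the further family members, 2 of 12 were measured, Omd and chondroadherin (Chad), and neither passed the test. Chad was above background on 2 of 10 arrays, at 33.1 ± 13.4 in BN against 14.2 ± 4.51 in LOU (SD, n = 5; adjusted p = 0.303).

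Enzymes that build and sulphate the sugar chains had 16 of 30 genes measured, of which 13 were negative and 3 positive, with a median of -0.27. None of these passed limma's test, and 4 had an unadjusted p under 0.05, or 25.0% against 13.2% of all named genes. Among them the chain-extending enzyme gene Chsy1 read 214 ± 30.2 in BN against 285 ± 28.9 in LOU, a log2 difference of -0.42 (SE 0.14, adjusted p = 0.221), and Fam20b, which encodes a kinase that acts on the linker of the chain, read 317 ± 17.1 against 389 ± 27.8, a difference of -0.29 (SE 0.10, adjusted p = 0.252), both with SD and n = 5 and chosen after their values were seen. The precursor enzyme gene Ugdh differed by -0.24 (adjusted p = 0.489) and the xylosyltransferase gene Xylt1, whose product starts the chain, by 0.25 (adjusted p = 0.572), likewise chosen after their values were seen.

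Collagens and matrix proteins that the proteoglycans bind had 14 of 16 genes measured, with 10 negative, a median of -0.09, no call and 2 at an unadjusted p under 0.05, or 14.3%, close to the 13.2% of all named genes. The fibrillar collagen gene Col1a2 differed by -0.15 (adjusted p = 0.682) and Col14a1, which sits on fibrils and is also on the fibroblast list, by -0.59 (adjusted p = 0.246), both chosen after their values were seen. Of 18 measured proteases and inhibitors, 13 were negative, with a median of -0.21, no call and 4 at an unadjusted p under 0.05, or 22.2%. The procollagen and probiglycan protease gene Bmp1, chosen after its value was seen, differed by 0.03 (adjusted p = 0.971).

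Growth factors and receptors that these proteoglycans bind or tune had 20 of 25 genes measured, with 12 negative, 8 positive and a median of -0.09. In limma 6 of the 20 had an unadjusted p under 0.05, or 30.0% against 13.2% of all named genes. Bmp4, a ligand of the TGF-beta superfamily, was the 1 gene called, lower in BN at 99.4 ± 16.6 against 255 ± 65.6 (SD, n = 5; log2 -1.34, SE 0.20, adjusted p = 0.0142), with BN at 80.7 to 118 and LOU at 182 to 336. The TGF-beta 1 ligand gene Tgfb1 differed by -0.59 (adjusted p = 0.0730), its receptor gene Tgfbr1 by -0.60 (adjusted p = 0.165) and Egfr, a receptor that decorin binds, by 0.89 (adjusted p = 0.0579), all 3 chosen after their values were seen. The clearance receptor gene Lrp1, chosen likewise, differed by -0.50 (adjusted p = 0.196).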

How the data were processed

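Total RNA of 10 aorta samples was hybridised as biotin-labelled cRNA to Affymetrix arrays, per the labels' protocols. The deposited values are array intensity, 1 linear signal per probe set, from 0 to 22220. The submitters' processing notes name RMA, yet the values are linear with a 2% trimmed mean of 200.05 to 200.06 on every array, so they were treated as unlogged signals that had been scaled. Median signals were 97.1 to 104.5, and 69.7% to 81.9% of probe sets lay above background, set on each array at the 95th percentile of its 45 bacterial probe sets. The number of arrays limits the precision.

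Strain differences were fitted on log2 of the signal with lmFit and eBayes of limma 3.58.1 (R 4.3.3), two-sided and with strain as the only term. The 4 values of 0 were set to 0.1, the 57 controls were left out, and Benjamini-Hochberg adjustment ran over 15866 probe sets with a threshold of 0.05. Every adjusted p of a gene is over these probe sets. Folds are ratios of geometric means. Symbols came from the platform annotation, with 12748 probe sets updated through gene identifiers in the RefSeq table of GRCr8, 35 kept as listed, and 3083 without a single symbol left unnamed. A gene with several probe sets was read from the brightest in lists. Single values were compared with exact permutation tests in Python 3.11.15 (scipy 1.17.1), and correlations with permutation tests within strains. The scripts were tested on simulated data.

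Every probe set of a member is named. In each list up to 4 genes with the smallest adjusted p under 0.05 are named, with the closest genes in gene order and in pattern, and the text marks any name picked later. The members, lists and tests were chosen with earlier results of these data known. Alternatives tried were median centring, quantile normalization, filters on dim probe sets, a floor of 32, a pseudocount of 16, array weights, a variance trend, 1 probe set per gene, arrays left out and a block for the replicate number. Fat marker sums as covariates were added after seeing the data. Protein sequences were not used here.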

Additional observations from a re-analysis of the deposited data

Results flagged for a closer look

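Each strain's 5 arrays were checked for 1 array standing apart in each of the 10 probe sets, 20 groups in all, where chance gives about 1 flag in 20 groups. The check asks whether the gap to the nearest array exceeds 0.71 of the group's range on the log2 scale. Prelp on BN array 3 was the 1 case, at a signal of 391.7, where the remaining 4 BN arrays gave 642.2 to 750.7, a gap of 0.76 of the range. The same array held the high neuron marker sum, and whether the 2 are related was not tested.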

How the results depend on the processing

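Settings concern the limma fit unless said otherwise. The 6 members other than Ogn kept the sign of their difference and stayed outside the threshold in all 23 alternatives. The gaps of the 4 Ogn pairs that differed ran from -1.87 to -1.12 over 15 alternatives; their exact p was the smallest possible, so it gives no measure of stability. Of the 10 probe sets, 2 passed in the reported fit. Member probe sets past the test numbered 1 with median centring, 1 with a floor of 32, 0 without BN array 3 and LOU array 1 (3 at an unadjusted p under 0.05) and 0 to 2 without 1 array. With 1 probe set per gene, only 1376749_at stood for Ogn in the fit, and it passed as the 1 member (limma adjusted p = 0.0155). With the replicate number as a block 0 passed (2 at an unadjusted p under 0.05), and the adjusted p was 0.107 for 1376749_at and 0.175 for 1383263_at. Same-numbered arrays of the strains correlated at -0.05 to 0.01, and 0 of the 5 BN arrays lay closest to its own number, so the numbers give no hint of pairing. The Ogn pairs were not run with a block, since the exact test of 5 pairs cannot pass the threshold. The difference of 1390450_a_at ran from -0.44 to 0.0075 without 1 array.

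Over all probe sets, 39 were called higher and 86 lower in BN. Counts were 78 and 175 without the dimmest 40%, 76 and 187 where every array of either strain had to be above background, 60 (higher) with a floor of 32, 60 and 144 with a pseudocount of 16, 81 and 161 with a variance trend, 10 and 13 with the replicate block, 16 (higher) without BN array 3 and LOU array 1, 141 and 173 with the adipocyte sum (chosen after seeing the data) as a covariate, and 17 to 36 and 45 to 91 without 1 array. The cause was not tested. All members were above background on every array.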
